A study of Mus musculus with 6 samples.

Results

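Genes whose products act in myelin, in the Schwann cells that ensheath peripheral axons or at the junction of axon and glia are described here across 6 mouse RNA sequencing libraries. They are Mbp, Pmp22, Lgi4, Erbb3, Ngfr, Cntn1 and Gas7. These 7 genes were taken by exact gene name, and all 7 have a row among the 18908 gene rows of the table and passed the filter on low counts, as did 14641 genes in all. They had been picked because they stood higher in the libraries labelled VprBP, so that difference is a description and carries no test.

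The study, by its title, concerns VprBP in osteoclast differentiation and compares cells given a control shRNA with cells given an shRNA against VprBP, the older name of Dcaf1 (written VprBP1 in the labels), with 3 libraries for each. A short hairpin RNA (shRNA) is processed in the cell into a small RNA that targets transcripts of matching sequence. The labels give every library as mouse bone marrow-derived macrophages, with a wild-type genotype for the control and a knockdown of VprBP for the other group. Age, strain, hairpin sequence and time are not stated. Nor do the labels say whether libraries of one group were independent cultures or mice. The p-values therefore cover only library-to-library spread, which may be technical.

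Total counts ran from 16839435 to 21838875 per library. Levels are counts per 1000000 (CPM) scaled by TMM factors, which correct for differences in RNA composition, and are given as mean ± SD over 3 libraries. Dcaf1 stood at 42.2, 43.5 and 40.7 CPM in control libraries 1, 2 and 3 and at 35.96, 34.6 and 36.8 CPM in the VprBP group, 84.9% of the control level by the edgeR fit (adjusted p = 0.00625, a call lost when scaling by library size only, adjusted p = 0.137). With so small a decrease in the targeted gene, the groups are called the control group and the VprBP group after their labels, and no difference below is ascribed to loss of VprBP. The macrophage label is also not borne out by marker genes. Of 16 macrophage genes, 12 have no row in the table used here, among them Csf1r, Adgre1, Itgam, Spi1 and Ptprc, and the other 4 summed to 16.5 to 40.2 CPM per library. Of 15 pigment cell genes, 14 had a row, and these summed to 19820 ± 291 CPM in the VprBP and 21600 ± 210 CPM in the control group.

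Myelin is the stack of membrane that glia wrap around axons, formed by Schwann cells in peripheral nerve and by oligodendrocytes in the brain and spinal cord. Neuregulin on the axon binds ERBB3 on the Schwann cell, which signals with ERBB2 and drives the cell's survival, growth and myelination, and the transcription factor SOX10 followed by EGR2 turns on the genes of myelin proteins. Schwann cells and pigment cells both descend from the neural crest and share several of these genes, including Sox10, Erbb3 and S100b. Of the 7, Mbp and Pmp22 encode structural proteins of myelin, Lgi4 a secreted ligand, Erbb3 and Ngfr receptors, Cntn1 an adhesion protein and Gas7 a membrane-shaping protein better known from neurons.

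Positions are in GRCm38. Pmp22 (63128982 to 63159547, plus strand), Gas7 (67455437 to 67688990, plus strand) and Ngfr (95568818 to 95587735, minus strand) are on chromosome 11. Lgi4 spans chromosome 7, 31059342 to 31070935, plus strand, Erbb3 chromosome 10, 128567523 to 128589652, minus strand, and Cntn1 chromosome 15, 92051165 to 92341967, plus strand. In GENCODE M21, 2059 exonic bases of Lgi4 are shared with Fxyd3 on the opposite strand, and 66 of Gas7 with Glp2r on the opposite strand. With no strand setting given in the sources used here, reads there cannot be told apart. Fxyd3 had 0, 2 and 0 counts in the control and 47, 51 and 29 in the VprBP group, against 482, 451 and 430 for Lgi4 in the latter, and Glp2r has no row.

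Promoter windows in the RefSeq table (GRCm38.p6) matched 3 of the 7 genes, Pmp22, Ngfr and Cntn1. The 250 bases before the outermost RefSeq start of each are shown on the gene's strand because the 3 genes stood higher together and can be compared for shared letters. The Ngfr window, from 95587699, lies partly inside the GENCODE M21 span of that gene, which ends at 95587735. Capitals mark ATCAAAG, the one motif found in the 3 windows shown.
Pmp22, chr11:63128732-63128981, plus strand: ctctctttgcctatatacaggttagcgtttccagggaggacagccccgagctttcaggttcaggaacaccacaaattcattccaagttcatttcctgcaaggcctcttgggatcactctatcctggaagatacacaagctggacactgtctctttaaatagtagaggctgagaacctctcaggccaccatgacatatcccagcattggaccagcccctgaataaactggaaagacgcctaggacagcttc
Ngfr, chr11:95587699-95587948, minus strand: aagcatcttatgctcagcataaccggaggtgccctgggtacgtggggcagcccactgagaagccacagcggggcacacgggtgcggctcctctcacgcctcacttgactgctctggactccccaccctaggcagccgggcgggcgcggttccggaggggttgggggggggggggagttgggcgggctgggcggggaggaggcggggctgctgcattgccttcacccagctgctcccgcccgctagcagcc
Cntn1, chr15:92050915-92051164, plus strand: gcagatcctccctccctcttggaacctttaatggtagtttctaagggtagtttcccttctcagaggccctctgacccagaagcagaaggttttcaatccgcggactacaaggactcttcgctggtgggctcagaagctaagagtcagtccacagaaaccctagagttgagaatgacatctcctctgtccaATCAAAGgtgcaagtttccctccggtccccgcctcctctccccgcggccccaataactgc
Both strands were searched for ACAAAG (in 16.5% of all windows of this length) or the variant ACAATG (10.7%) of SOX factors, then ATCAAAG (3.21%) of LEF factors. The search also took in CACGTG (6.02%) or the variant CATGTG (12.3%) of MITF, as well as GCGTGGGCG (0.536%) or the variant GCGGGGGCG (2.57%) of EGR factors. ATCAAAG was found 60 to 54 bases before the Cntn1 start, and shares are of 32851 windows. No motif had a match in the Pmp22 or Ngfr window shown. GC content was 48.8% for Pmp22, 70.4% for Ngfr and 53.6% for Cntn1, beside a median of 52.4% over all windows. Pmp22 has 4 and Cntn1 3 annotated starts in the table. The windows before the other starts held 1 match, the SOX motif ACAATG on the reverse strand, 139 to 134 bases before the Cntn1 start whose window runs from 92127878 to 92128127, and gene-level counts do not show which were used.

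Mbp encodes myelin basic protein, which holds the inner faces of the myelin membrane together, and from an upstream start also the Golli proteins found outside myelin, which this row does not separate. The gene spans chromosome 18, 82475146 to 82585637, plus strand. It was measured at 21.1, 19.8 and 21.1 CPM in control libraries 1, 2 and 3 and at 730.5, 693 and 659 CPM in VprBP libraries 1, 2 and 3. The groups lay far apart, and the spread within each was small (20.6 ± 0.753 and 694 ± 35.6 CPM). The log2 difference, VprBP minus control, was 5.07 (SE 0.06), or 33.6-fold. In the VprBP group, 0.963% of tested genes had a higher mean CPM than Mbp, and in the control group 49.3%.

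Pmp22 encodes a small membrane protein of compact peripheral myelin, also known as growth arrest-specific 3, whose gene dosage is known to cause inherited neuropathy. It stood at 2.49, 2.54 and 1.73 CPM in the control group and at 99.4, 89.9 and 96.05 CPM in the VprBP group. Control library 3 was lowest, on 29 counts, and every VprBP library was above every control one. The log2 difference was 5.39 (SE 0.11), or 41.9-fold, from 2.25 ± 0.453 to 95.1 ± 4.84 CPM.

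Lgi4 encodes a protein that Schwann cells secrete and that binds ADAM22 to promote peripheral myelination. It had no counts in any control library and stood at 26.0, 24.4 and 22.4 CPM in the VprBP group (24.3 ± 1.78 CPM). Against 3 counts over the control group, a level of 0.0558 CPM, Lgi4 was at least 434.5-fold higher. Reads in the exonic bases shared with Fxyd3 are not separated in this value.

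**Figure D1:**
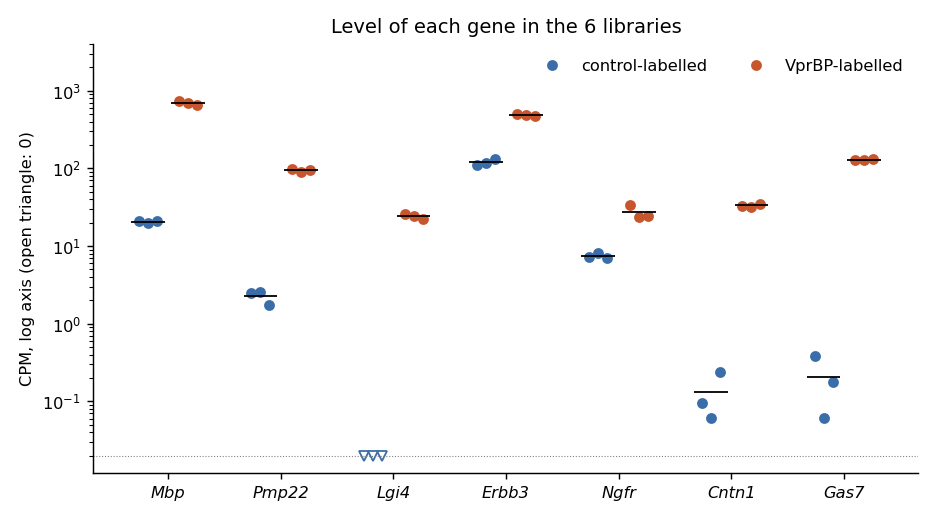
Level of each of the 7 genes in the 3 control (blue) and 3 VprBP (orange) libraries, in CPM on a log axis. Points are libraries, bars are group means, and open triangles stand for the 3 control libraries in which Lgi4 had no counts. For each gene the 3 VprBP libraries lie above the 3 control libraries.

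Erbb3 encodes the neuregulin receptor with a weak kinase domain, which signals by pairing with ERBB2. Its level in the control group was the highest of the 7, in CPM and per kilobase of exon, at 111, 118 and 131 CPM, and stood at 498, 480.5 and 472 CPM in the VprBP group. The log2 difference was 2.01 (SE 0.06), or 4.03-fold. Ngfr encodes p75, the receptor that binds all neurotrophins and marks neural crest cells and immature Schwann cells. It stood at 7.32, 8.05 and 6.99 CPM in the control group and at 33.4, 23.8 and 24.5 CPM in the VprBP group. VprBP library 1 stood above the other 2, and the coefficient of variation in that group was 19.7%, where counting error alone gives 4.43%. The log2 difference of Ngfr was 1.87 (SE 0.14), or 3.65-fold.

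Cntn1 encodes contactin 1, a lipid-anchored adhesion protein of neurons and oligodendrocytes that joins axon to glia beside the node of Ranvier. It had 2, 1 and 4 counts in control libraries 1, 2 and 3 and 616, 591 and 667 in the VprBP group. Levels were 0.132 ± 0.0939 and 33.3 ± 1.43 CPM. The ratio of scaled counts was 256, with a 95% exact counting interval of 124 to 638. Without control library 3 the fitted log2 difference went from 7.93 to 8.56. Gas7 encodes an F-BAR protein, a family that bends membranes, first described in growth-arrested cells. It had 8, 1 and 3 counts in the control group and 2358, 2387 and 2534 in the VprBP group, or 0.208 ± 0.162 and 129 ± 2.54 CPM. The ratio was 580, with a counting interval of 332 to 1123, and without control library 1 the fitted log2 difference went from 9.14 to 9.97. A count of 3 in a control library equals 0.144 to 0.186 CPM, and more than 3 counts were seen there only in control library 3 for Cntn1 and in control library 1 for Gas7. Both intervals reflect counting error alone. Amplified reads need not each stand for a molecule, so the intervals may be too narrow.

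All 7 genes were called higher and their groups did not overlap, which held for 37.9% (called higher) and 39.0% (no overlap, higher) of all tested genes. Nothing is read from that count, because the genes were chosen on this contrast. In bulk RNA, fewer cells that carry a transcript and less of it per cell cannot be told apart.

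Compared per kilobase of exon, the order of the genes differed between the groups. In the control group Erbb3 was highest at 19.96 ± 1.73 CPM per kb, followed by Mbp at 2.44 ± 0.0889 and Ngfr at 2.16 ± 0.159 CPM per kb, whose ranges overlapped, and Pmp22 at 0.957 ± 0.192 CPM per kb. Gas7 and Cntn1 overlapped at 0.0183 ± 0.0143 and 0.0140 ± 0.00995 CPM per kb, and Lgi4 was at 0. In the VprBP group Mbp (82.0 ± 4.20 CPM per kb) and Erbb3 (80.4 ± 2.18 CPM per kb) overlapped at the top. Below them stood Pmp22 at 40.4 ± 2.06, Gas7 at 11.4 ± 0.224, Ngfr at 7.90 ± 1.56, Lgi4 at 5.29 ± 0.389 and Cntn1 at 3.53 ± 0.152 CPM per kb, with no overlap between neighbours in this order. Exon length is that of all annotated exons together, so these values shift if only some isoforms are made. In CPM, Erbb3 made up 78.0% to 81.3% of the summed level of the 7 genes in the control group and 32.2% to 32.8% in the VprBP group, and Mbp 13.1% to 14.8% and 45.8% to 47.2%.

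**Figure D2:**
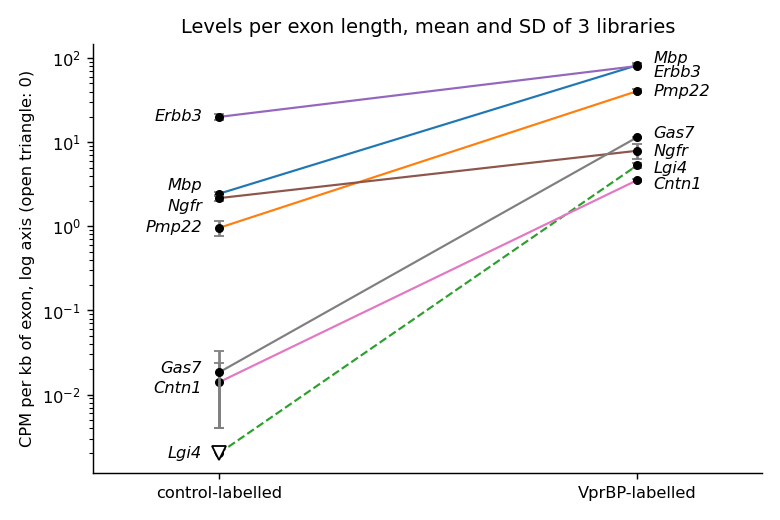
Mean level per kilobase of exon of each gene in the 2 groups, in CPM per kb on a log axis, with the SD over 3 libraries as error bars. The open triangle marks Lgi4 at 0 in the control group. Mbp and Erbb3 meet at 82.0 and 80.4 CPM per kb in the VprBP group, while Ngfr stands at the third place in the control group and at the fifth in the VprBP group.

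The genes around these 7 were examined through 10 lists that leave the 7 out. Calls are by edgeR at an adjusted p below 0.05 over all 14641 tested genes, of which 37.9% were called higher and 37.0% lower, with a median log2 difference of -0.01. Genes that stand near 0 in one group can pass the count filter only through the other, so the tested share of a list is not the whole list.

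Other myelin proteins rose in the VprBP group wherever they could be tested. Of 20, 9 were tested and all 9 rose, with a median log2 difference of 3.53. Some of the 9, Mal among them, passed the count filter only through the VprBP group and could not have been called lower. Gjc3, a connexin of myelinating cells, rose 11.6-fold from 3.74 ± 0.423 to 43.1 ± 1.33 CPM, Cnp, an enzyme of uncompacted myelin, 9.93-fold, and Prx, which links the Schwann cell to its basal lamina, 2.44-fold. Mal, a raft protein of myelin, had no counts in the control group and 2.20 ± 0.599 CPM in the VprBP group, at least 39.5-fold higher. Mag, Ncmap and Gpm6b had too few counts for a test, Mag with none in the control group and 0.374 ± 0.0964 CPM in the others. Mog, Mobp, Pmp2, Gjb1, Cldn11, Cldn19, Opalin and Ermn have no row in the table used here, in which the lowest total over the 6 libraries was 10 counts.

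The enzymes of myelin lipids moved in both directions. Of 10, all tested, 4 rose and 6 fell (median -0.61). Elovl1, which lengthens fatty acids, fell 2.94-fold from 180 ± 1.79 to 61.1 ± 1.69 CPM, and Cers2, the synthase of long-chain ceramides, 1.90-fold from 655 ± 16.2 to 344 ± 13.8 CPM. Kdsr and Degs1, which act on the path to ceramide, fell 1.77-fold and 1.71-fold. Sptlc2, a subunit of the enzyme that starts sphingolipid synthesis, rose 1.35-fold. Ugt8a, which makes the galactolipids that set myelin apart, rose 1.77-fold, from 2.96 ± 0.724 to 5.21 ± 1.41 CPM, but its groups overlapped. Other enzymes at low levels went opposite ways. Fa2h fell 3.92-fold from 1.275 ± 0.365 to 0.317 ± 0.260 CPM, with no overlap. Gal3st1 went from 11 counts over the control group to 1.97 ± 0.187 CPM in the VprBP group. Without VprBP library 3, 2 in place of 4 were called higher, and neither Ugt8a nor Sgms1 was (adjusted p = 0.0628 and 0.051).

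Among the transcription factors of the Schwann lineage, Sox10 rose and Egr2 did not. Of 20, 15 were tested, with 9 called higher, 2 lower and 4 not called (median 0.81). Sox10 stood at 132.5, 145 and 153 CPM in the control group and at 540, 475 and 492 CPM in the VprBP group, a 3.51-fold rise with no overlap. Zeb2, a repressor needed for Schwann cell maturation, rose 4.42-fold, Id2, an inhibitor of differentiation factors, 3.26-fold, and Nab1, a partner of EGR2, 3.004-fold. Egr2, the factor that turns on the myelin genes in Schwann cells, stood at 1.005, 1.49 and 1.37 CPM and at 0.323, 0.918 and 0.521 CPM. It was called lower (adjusted p = 0.045), a call lost without VprBP library 1 or 3 or control library 2 or 3, with adjusted p from 0.11 to 0.201, and also with DESeq2 (0.106), library size only (0.0703), no filter (0.0799) and the replicate block (0.0586). In each of those settings 1 lower call was made in place of 2, except without control library 3, where Tfap2a was called lower too. Jun, which is high in repair Schwann cells and opposes myelination, fell 3.36-fold from 472 ± 25.0 to 141 ± 2.65 CPM. Pou3f1, which acts before Egr2, was too low for a test (0.391 ± 0.230 and 0.265 ± 0.134 CPM), and Sox2, Foxd3, Tfap2b and Id4 have no row.

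Genes of neuregulin signalling around Erbb3 moved both ways, and most calls were higher. Of 25, 17 were tested, with 11 called higher, 4 lower and 2 not called (median 0.31). Nrg2 and Tgfa, among the 11, passed the count filter only through the VprBP group and could not have been called lower. Erbb2, the partner that supplies the kinase, stood at 36.8, 37.7 and 37.6 CPM and at 56.2, 52.3 and 52.1 CPM, a 1.43-fold rise. The other receptors of the family, Egfr and Erbb4, have no row, and neither do the ligands Nrg1 and Nrg3. Nrg2, another ligand of the family, had 9 counts over the control group and 2.04 ± 0.110 CPM in the VprBP group. Nrg4, of the same ligand family, was called lower (2.23 ± 0.487 and 1.204 ± 0.431 CPM, adjusted p = 0.049), a call lost in 9 of 12 alternatives, among them leaving out VprBP library 1 or 2 or control library 1 or 2. Egf, a ligand of the related receptor EGFR, fell 1.97-fold from 4.47 ± 0.496 to 2.27 ± 0.258 CPM. Of the other EGFR ligands of the list, Tgfa and Hbegf were called higher. Btc had too few counts for a test, and Areg, Ereg and Epgn have no row. Tgfa went from 2 counts over the control group to 1.80 ± 0.428 CPM in the VprBP group. Hbegf stood at 9.87 ± 0.921 and 12.3 ± 0.892 CPM, a call lost in 7 of 12 alternatives. Pik3r1, a regulatory subunit of the kinase that ERBB3 recruits, rose 7.25-fold from 9.02 ± 1.38 to 65.0 ± 2.54 CPM. The neuregulin-cleaving proteases Bace1 and Adam10 rose 1.98-fold and 1.61-fold, and Pik3ca, the catalytic partner of Pik3r1, 1.44-fold. Rnf41, a ubiquitin ligase that marks ERBB3 for degradation, fell 1.36-fold from 43.7 ± 3.29 to 32.2 ± 2.95 CPM, and the ERBB inhibitor Errfi1 1.55-fold.

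The tested receptors of LGI proteins stood higher in the VprBP group, as did Lgi4, which was chosen for this. Of 7 genes, 4 were tested and all 4 rose (median 5.03). Adam22, Adam11 and Lgi3 passed the count filter only through the VprBP group and could not have been called lower. Nothing is therefore read from the count or the median. Adam22, the receptor for LGI4 on the axon and Schwann cell, stood at 0.670, 0.372 and 0.239 CPM and at 9.87, 10.3 and 9.33 CPM, a 21.9-fold rise. Adam23, the related receptor, rose 7.09-fold from 17.8 ± 2.52 to 126.5 ± 3.52 CPM, and Adam11 49.1-fold from 0.394 ± 0.348 to 20.3 ± 0.207 CPM. Lgi3 had 8 counts over the control group and 9.86 ± 0.939 CPM in the others. Adgrg6, a receptor Schwann cells need to begin myelination, had too few counts for a test, and Lgi1 and Lgi2 have no row.

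Neurotrophin genes around Ngfr moved both ways. Of 19, 14 were tested, with 7 called higher, 4 lower and 3 not called (median 0.18). Sorcs2, among the 7, passed the count filter only through the VprBP group and could not have been called lower. The sortilin family, which pairs with p75 to bind neurotrophin precursors, was higher for both members listed. Sort1 rose 2.23-fold from 205 ± 5.18 to 456 ± 10.7 CPM, and Sorcs2 went from 1 count, in control library 2, to 12.5 ± 0.178 CPM, a ratio of 675 with a counting interval of 121 to 26710. Maged1 and Ripk2, which bind p75 inside the cell, rose 1.93-fold and 1.66-fold. Bdnf fell 2.01-fold from 7.07 ± 0.732 to 3.53 ± 1.103 CPM, and the p75 adaptor Traf6 1.71-fold. The neurotrophin receptor Ntrk3 fell 1.40-fold (adjusted p = 0.0255), a call lost with DESeq2 (0.0683), with library size only (0.0816), without VprBP library 2 (0.124) and without control library 2 (0.0893). Ntf3 and Ntrk2 have no row.

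Of 19 contactins and junction proteins, 6 were tested, with 4 called higher and 2 not called (median 1.19). L1cam, an adhesion protein of axons and Schwann cells, rose 9.82-fold from 30.8 ± 1.27 to 302 ± 13.5 CPM, and Nrcam, which gathers sodium channels at the node, 2.66-fold from 331 ± 10.6 to 881 ± 18.7 CPM. Notch1, for which contactin 1 is a ligand, rose 4.82-fold, and Notch2 1.96-fold. Cntnap1, the partner of contactin 1 on the axon, was not called at 37.8 ± 2.40 and 41.2 ± 1.81 CPM, nor was Nfasc, their glial counterpart, at 0.439 ± 0.155 and 0.553 ± 0.120 CPM. Cntn2 had too few counts, and Cntn3, Cntn4, Cntn5 and Cntn6 have no row, so Cntn1 was the one contactin tested. With DESeq2 or no filter 7 junction genes were called higher, as Cntn2, Epb41l3 and Tnc were then tested too. With library size as the only scaling Cntnap1 was called higher as well (log2 difference 0.24, adjusted p = 0.00843).

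No tested relative of Pmp22 in its protein family was called higher. Among 9 relatives and partners, 7 were tested, with 2 called higher, 3 lower and 2 not called (median -0.17). Emp1 (8.89 ± 0.261 and 7.83 ± 1.99 CPM) and Emp2 (0.742 ± 0.214 and 0.982 ± 0.319 CPM), of the same family, were not called, and Emp3 fell 1.44-fold from 44.1 ± 1.98 to 30.5 ± 2.07 CPM. The 2 that rose were Itga6 (4.998-fold) and Itgb4 (5.13-fold), which form the laminin receptor that binds PMP22 in the Schwann cell. Canx, the chaperone that holds PMP22 in the endoplasmic reticulum, fell 1.49-fold, and the sorting receptor Rer1 1.125-fold, a call lost when scaling by library size only. Of 26 F-BAR and growth arrest-specific genes listed beside Gas7, 24 were tested, with 15 called higher, 8 lower and 1 not called (median 0.61). Of the 24, 2 had under 10 counts in every control library and could not have been called lower. Srgap3, an F-BAR protein of neurons, rose 17.8-fold from 1.31 ± 0.263 to 23.9 ± 1.73 CPM, and Fcho1, Fes and Fchsd2, of the same superfamily, 7.01-fold, 3.40-fold and 2.83-fold. Gas2l3, which links actin to microtubules, fell 3.11-fold, Gas8 1.98-fold, Srgap1 1.90-fold and Pacsin3 1.43-fold, and Trip10 was not called (41.9 ± 3.56 and 41.3 ± 1.204 CPM).

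Of the genes of immature and repair Schwann cells that could be tested, most were higher in the VprBP group. Of 14, 10 were tested, with 9 called higher and 1 lower (median 1.96). Gap43 and Gdnf had too few counts for a test, and Shh and Olig1 have no row. Gfap, a filament protein of non-myelinating Schwann cells and astrocytes, stood at 3.25, 3.35 and 3.04 CPM and at 47.4, 44.2 and 54.0 CPM, a 15.1-fold rise. Lif, a cytokine of injured nerve, rose 6.36-fold, the adhesion protein Ncam1 5.66-fold from 97.02 ± 4.69 to 549 ± 12.4 CPM, and the integrin Itga4 5.12-fold. S100b, a calcium-binding protein of Schwann and pigment cells, rose 4.53-fold. Artn, a nerve growth factor made after injury, fell 2.57-fold from 10.5 ± 0.946 to 4.07 ± 0.578 CPM. Jun, high in repair Schwann cells but listed above with the transcription factors, fell 3.36-fold.

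**Figure D3:**
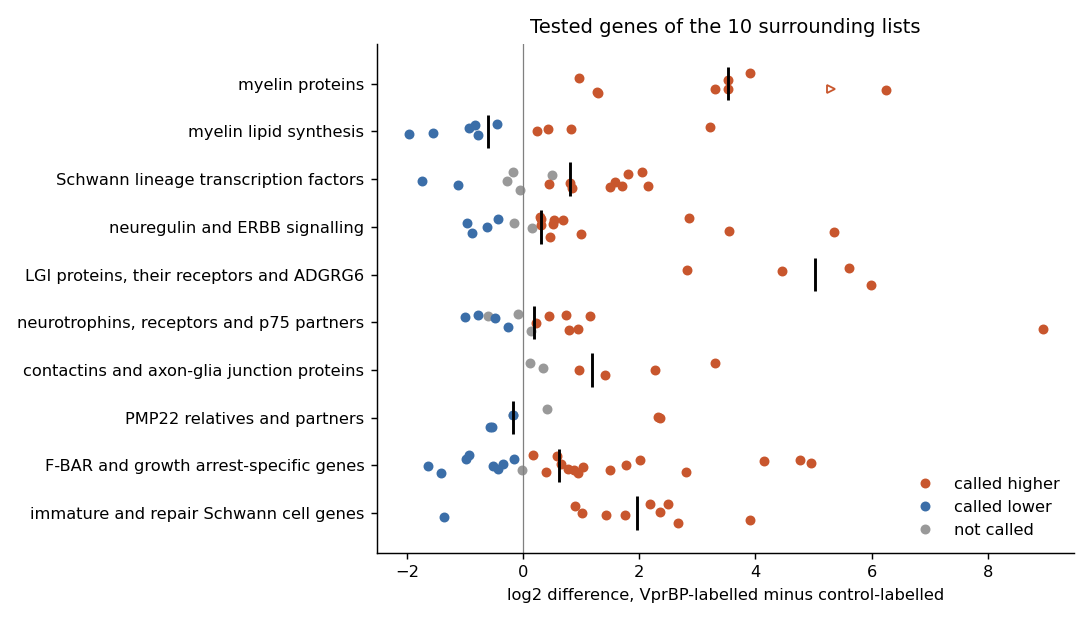
Log2 difference, VprBP minus control, of each tested gene in the 10 lists, coloured by its edgeR call, with the list's median as a black bar and the open triangle for Mal at its lower bound. The 9 myelin proteins and the 4 genes of the LGI list lie to the right of 0, and the myelin lipid enzymes lie on both sides.

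Marker lists of several cell types moved with the labels beside these genes, and the Schwann cell markers share genes with the lists above. Of 18 Schwann cell markers, 15 have a row and 12 were tested, with 11 called higher and 1, Egr2, lower. Some of the 11, Mal among them, passed the count filter only through the VprBP group and could not have been called lower. The 15 summed to 290 ± 11.3 CPM in the control group (278 to 300.2) and 1020 ± 20.3 CPM in the VprBP group (1001 to 1042). The defining marker Mag was at 0 in the control group, while Pmp2, Gjb1 and Cldn19 have no row. Of 12 oligodendrocyte markers, 3 have a row (Pdgfra, Myrf and Cspg4), with all 3 called higher and sums of 21.9 ± 1.59 and 108 ± 1.03 CPM. Mog, Mobp, Opalin, Olig1 and Olig2, which define that cell, have none. Of 10 fibroblast markers, 6 were tested, with 5 called higher and 1 lower, and sums of 52.2 ± 0.495 and 427 ± 24.7 CPM, most of the latter from Col1a1. Of 11 neuron markers, Tubb3 and Map2 were tested and called higher, with sums over 4 genes of 17.6 ± 0.854 and 109 ± 7.79 CPM, and Rbfox3, Snap25, Stmn2 and Elavl4 have no row. Of 13 tested pigment cell genes, 6 were called higher, 6 lower and 1 not, and of 4 tested macrophage genes 2 higher, 1 lower and 1 not. The lower one was Cd68, a lysosomal protein abundant in macrophages, which fell 31.0-fold from 31.6 ± 1.196 to 1.01 ± 0.270 CPM. The macrophage sum was 39.05 ± 1.71 CPM in the control group, most of it from Cd68, and 17.6 ± 0.955 CPM in the VprBP group. The median log2 difference of the 4 macrophage genes was 0.43. The share of counts from the mitochondrial genome was 8.65% to 9.48% in the control and 4.89% to 5.56% in the VprBP group. The part of these differences in the levels of the 7 genes was not tested.

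**Figure D4:**
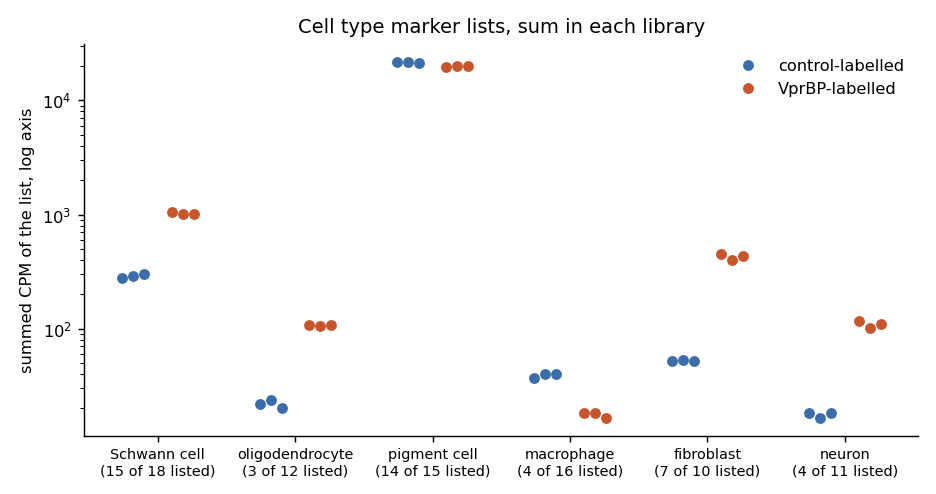
Summed CPM of 6 cell type marker lists in each library on a log axis, with the control group in blue and the VprBP group in orange, and the number of markers that have a row under each name. Pigment cell genes lie between 19500 and 21760 CPM in every library, and Schwann cell markers at 278 to 300.2 and 1001 to 1042 CPM.

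For each of the 7 genes, the 2 protein-coding genes with the most similar profile were found by the Euclidean distance between log2 CPM values centred on their mean over the 6 libraries, among 10347 genes whose mean reached 5 CPM. The measure weighs the size of the difference between groups most, so closeness in it is a description. Nearest to Mbp were the mitotic kinase Aurkb (distance 0.233) and Angpt2, a ligand of blood vessel receptors (0.261). Nearest to Pmp22 were the carbonic anhydrase Car6 (0.453) and Hmmr, a hyaluronan receptor of the mitotic spindle (0.475). Nearest to Erbb3 were the collagen Col16a1 (0.0929) and the kinase Map3k4 (0.0945), and nearest to Ngfr Olfm1 (0.164), a secreted protein of neurons, and Fbxo41 (0.247). Nearest to Lgi4 were the matrix proteoglycan Prelp (0.283) and Clca3a1 (0.609), to Cntn1, among those reported here, the protease inhibitor Serpina3n (0.659), and to Gas7 the potassium channel Kcna5 (1.36) and the receptor Lgr6 (1.57). The distances for Gas7 were the largest of the 7, on 12 control counts. The log2 values include a prior count of 2. Lgi4 had no control counts, so its control values in this measure come from that prior and its distances are not a measured likeness. None of the 7 was among the nearest of another.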

How the data were processed

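Messenger RNA of 6 libraries, 3 per label, was made into libraries with a SMARTer kit, per the labels' protocols. The authors deposited expected counts per gene, not scaled between libraries. Partek and the mouse build mm10 were used, per the submitters' processing notes. Aligner, counting tool, strandedness and annotation release: not given in the sources used here. The deposited column of gene length is the genomic span in bases (an other quantity, not a level) and was not used.

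Estimated counts were rounded to whole numbers. The quasi-likelihood F test of edgeR 4.0.16 under R 4.3.3 was used (filterByExpr, TMM scaling, group as the only term), with Benjamini-Hochberg adjustment over 14641 genes. The procedure was tested on simulated counts. Folds come from the edgeR log2 difference. Where a group had no counts, a fold is a bound against 3 counts over the group, and where it had few, a ratio of scaled counts with an exact 95% interval. Exon lengths are merged GENCODE M21 exons; 18501 of 18908 IDs matched, all with the same coordinates.

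The 7 genes and all lists were chosen with earlier results of these data known. Named in each list were up to 4 called genes per direction with a mean of at least 5 CPM, by size of difference. Genes with no row, too few counts or no call were named where they say what a list holds. Egf, Egr2, Erbb2, Fa2h, Gal3st1, Hbegf, Mal, Nrg2, Nrg4, S100b, Tgfa and Ugt8a fall outside this rule and were chosen after their values were seen. Alternatives were DESeq2 size factors, library size only, upper quartile scaling, a DESeq2 1.42.0 test, no filter, the replicate number as a block and leaving out each library. Library depth gave 0.144 to 0.186 CPM for 3 counts in a control library. Some genes that the rule names are not reported here.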

Additional observations from a re-analysis of the deposited data

How the results depend on the processing

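The log2 difference of each of the 7 genes stayed above 0 under all 12 alternatives (84 of 84 values), and its median over the 7 ran from 5.23 to 5.50 beside 5.39. The genes were chosen on this contrast and the alternatives reuse its libraries, so the kept sign is no test of the difference. With library size as the only scaling, the median over all genes went from -0.01 to 0.10 and Mbp to 5.19, and calls were 6160 higher and 4719 lower; this also ended the Dcaf1 call (-0.12, adjusted p = 0.137). Of 240 counts over the lists, 230 stayed within 1.5 times. Lower calls among Schwann lineage factors were 1 in place of 2 with DESeq2, library size only, no filter and the replicate block, and 1 to 2 with a library left out; Egr2 was the call lost. Junction proteins called higher were 7 in place of 4 with DESeq2 and with no filter, where Cntn2, Epb41l3 and Tnc were also tested. Myelin lipid enzymes called higher were 2 to 4 with a library left out.

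The replicate number as a block gave 5395 higher and 5254 lower calls beside 5552 and 5422. Deviations of same-numbered libraries correlated at -0.0324, 0.00664 and -0.0422 across genes, and not every library correlated best with its own number, so the numbers were not taken as pairs. Depth limits Lgi4, Cntn1 and Gas7 in the control group, where their folds rest on 0, 7 and 12 counts.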

Other observations

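Genes next to the 7 on the chromosome were examined within 100 kb, a window chosen after the data were seen. Of 8 tested neighbours of Lgi4, 6 were called higher by edgeR and none lower, beside 37.9% and 37.0% of all tested genes. Among them Fxyd5 and Fxyd1, regulators of the sodium pump, stood at 2.59 ± 0.241 and 32.5 ± 1.29 CPM and at 0.165 ± 0.0360 and 10.3 ± 1.58 CPM in the control group and the VprBP group. Fxyd3 was also called higher, but it shares 2059 exonic bases with Lgi4 on the opposite strand, where reads cannot be told apart. Fxyd1 and Fxyd3 passed the count filter only through the VprBP group and could not have been called lower. The 2 not called were Lsr and Gm4673. Around Erbb3, 5 of 11 tested neighbours were called higher and 6 lower, and around Ngfr 2 of 3 higher and 1 lower. The 2 tested neighbours of Mbp, Zfp236 and a ribosomal pseudogene, were not called, with Zfp236 at 37.9 ± 1.70 and 36.8 ± 3.19 CPM. Pmp22, Cntn1 and Gas7 had no other gene of the table within 100 kb.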
